A study of Sus scrofa with 16 samples.

Results

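The genes described here are those of cell division and chromatin among the transcripts measured in whole pig conceptuses (the embryo with its membranes) during the growth and elongation that precede attachment to the uterus. They were picked by a rule on the gene symbol, set with earlier results of these data known. The rule takes cyclins, CDC and CDK genes, centromere, kinesin and MCM genes, high mobility group (HMG) genes and histones. It also takes histone deacetylases, chromatin remodelling subunits of the SMARC and ARID families, topoisomerases, CBX genes and a few single genes. Of 636 genes with a probe carrying 1 symbol, 19 met the rule, measured by 22 of the 1015 probes. A gene with several probes was represented by the brighter one, and CCNB1, HMGB1 and H3F3A had 2 probes each. The name SMARCA4 rests on the platform annotation alone, because the gene identifier of its probe was not matched in the RefSeq gene table, whereas the other 21 probes were matched with the same symbol. PCNA, MKI67 and AURKA are named in the rule, but no probe carried any of them as its 1 symbol, so they are not among the members.

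Amplified RNA from each sample was radioactively labelled and hybridised to a membrane of spotted cDNA products, which gives 1 intensity per probe. The 16 samples were Sus scrofa embryos, 4 arrays for each of 4 shapes. Embryos of 1 to 5 mm were classed as small spherical, those of 6 to 11 mm as large spherical, those of 13 to 45 mm as tubular, and those over 100 mm as filamentous. The labels give no breed, treatment, age or litter and do not state that replicates are separate animals or pools, so p-values measure the spread between these samples, which may be technical. Whole conceptuses mix cell types, and fewer cells of a type cannot be told apart from less RNA per cell.

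Array medians lay between 62.8 and 71.4 intensity units. The arrays numbered 1 in the 4 stages had mean Spearman correlations of 0.873 to 0.9 with the other arrays of their stage, against 0.895 to 0.937 for the arrays numbered 2 to 4. Mean correlations with the same-numbered arrays of other stages were 0.906 to 0.934 for the arrays numbered 1. They were 0.913 to 0.925 for those numbered 2 (own stage 0.908 to 0.919) and 0.946 to 0.955 for those numbered 3 (0.909 to 0.931). For those numbered 4 they were 0.872 to 0.923 (0.895 to 0.937). The main fit did not use the array number. Small spherical replicate 3 correlated slightly more with arrays of other stages and numbers (0.919) than with its own stage (0.914). By smaller margins so did large spherical replicate 1 (0.8930 against 0.8928) and filamentous replicate 2 (0.9110 against 0.9107). These gaps are small and do not mark any of these arrays as faulty. Calls of members are also given without the arrays numbered 1. A further fit left out small spherical replicate 3 and filamentous replicate 1 together. Of the trophectoderm markers, 6 of 9 were measured, and KRT18, a keratin of this outer epithelium and the brightest of them, read 198 to 317 over the 16 arrays. SFN read 61.7 to 188 and KRT19 60.2 to 175. The other trophectoderm markers were dim, with KRT8 at 12.6 to 36.4, PLAC1 at 9.39 to 41.5 and GCM1 at 0.12 to 26.2. The 1 measured marker of maternal blood and immune cells, CD3E, read 0.33 to 4.34, and the 1 of uterine epithelium, PGR, 0.517 to 11.2. The summed trophectoderm markers read 402 to 633 in small spherical and 443 to 687 in filamentous conceptuses. The 5 of 9 hypoblast and yolk sac markers that were measured summed to 303 to 424 in small spherical and 436 to 592 in filamentous conceptuses, and the 3 of 5 mesoderm markers to 59.7 to 69.8 and 79.8 to 121, so neither sum overlapped between these stages. A sum gives most weight to its brightest genes. By limma, 1 trophectoderm marker and 0 hypoblast, yolk sac or mesoderm markers passed between these stages (adjusted p below 0.05). The part of the markers in the differences of the cell division and chromatin genes was not tested.

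A dividing cell copies its DNA, condenses it and separates the copies. Cyclins switch on the kinases that drive each step: cyclin A2 acts in DNA replication and on the way into mitosis, and cyclins B1 and B2 drive entry into mitosis. TOP2A untangles the copied strands, and CENPF and BUB3 work at the kinetochore, where spindle fibres attach. Packaging of DNA by histones is opened or closed by remodelling enzymes such as those of the SWI/SNF (BAF) complex, of which SMARCA4 is an ATP-driven motor and ARID1A a large DNA-binding subunit. HMG proteins bind DNA or nucleosomes and bend or loosen them.

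No member of this group passed the test over the 4 stages or in any contrast between stages (limma on log2 intensity, Benjamini-Hochberg adjustment over 1014 probes, threshold 0.05). In the F test over the 4 stages 0 of 19 members passed, where 0.394% of all probes did, and 3 had an unadjusted p below 0.05 (SMARCA4, HMGB1 and ARID1A), where 10.4% of all probes did. The spread within a stage had a median SD of 0.33 on the log2 scale over the members and of 0.38 over all probes.

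The intervals show how much change the 16 arrays leave possible. The 95% interval of the fitted difference lay within a 2-fold change in either direction in all 4 contrasts for 11 members (BUB3, CCNB2, CDC37, CENPF, H3F3A, HMGB2, HMGN1, RAN, SET, SMARCA1 and TOP2A). For H3F3A this held on the brighter probe only. On its other probe the log2 interval passed a 2-fold change from small to large spherical (-1.04 to 0.30). It did so from tubular to filamentous as well (-0.27 to 1.08). HMGB2 was at the maximum of the array on 6 of 16 arrays, where values can be saturated, so its interval does not bound its change. Intervals within a 2-fold change in all 4 contrasts were found for 54.5% of all probes, beside 11 of 19 members. Wider changes were not bounded in at least 1 contrast for ARID1A, CCNA2, CCNB1, H2AFY, HDAC1, HMGB1, HMGN2 and SMARCA4.

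**Figure D1:**
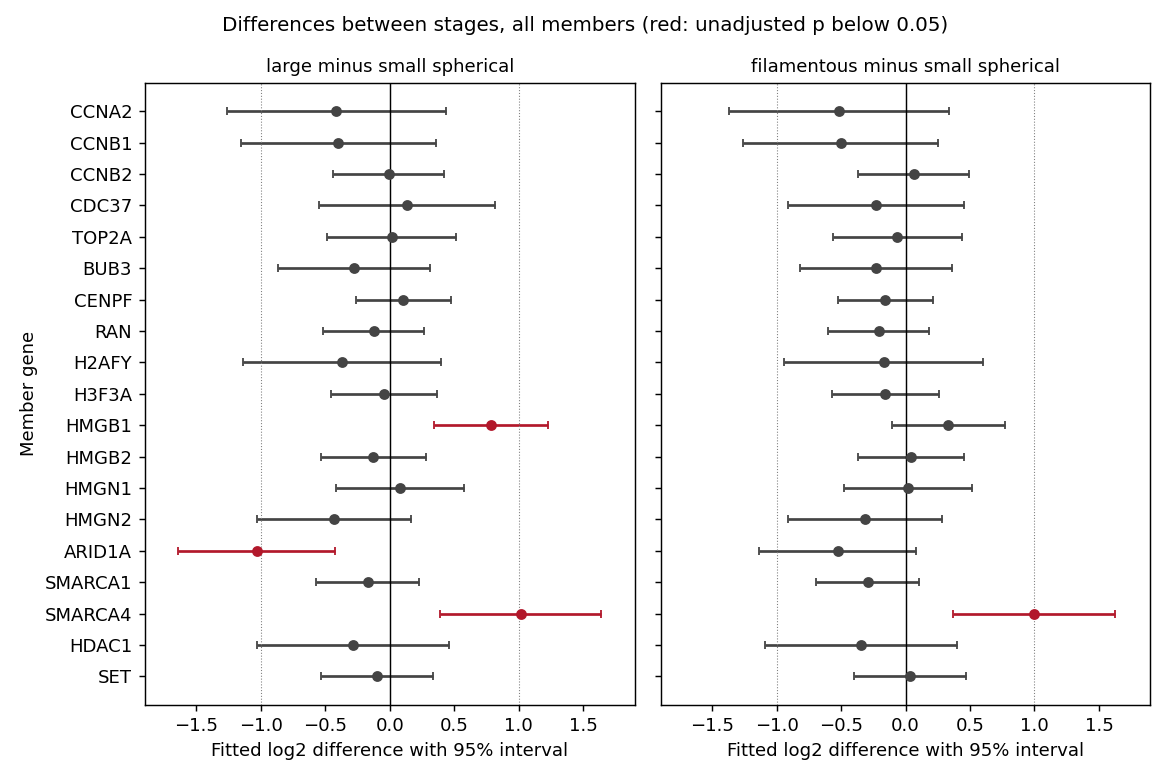
Fitted log2 difference (point) with its 95% interval (bar) for each of the 19 members, for large minus small spherical (left) and filamentous minus small spherical (right) embryos, from 4 arrays per stage, with dotted lines at 2-fold changes. Both panels share the small spherical arrays. HMGB1, ARID1A and SMARCA4 have intervals clear of 0 on the left and SMARCA4 alone on the right, and none passed after adjustment.

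SMARCA4 had the largest F of the members. In small spherical embryos it read 67.3, 60.6, 123 and 34.4 in replicates 1 to 4, in large spherical ones 149, 84.7, 162 and 141, in tubular ones 152, 147, 150 and 150 and in filamentous ones 122, 124, 136 and 132. All 8 tubular and filamentous arrays except filamentous replicate 1 lay above every small spherical array, and large spherical replicate 2 lay within the small spherical range. The means were 71.4 ± 37.4, 134 ± 34, 150 ± 2.34 and 129 ± 6.58 (intensity, SD, n = 4), with the spread over arrays much narrower in the elongated stages than in the spherical ones. From small to large spherical the difference was 1.01 ± 0.29 (log2, SE), a 2.02-fold ratio that did not pass (limma, adjusted p = 0.137). From small spherical to filamentous it was 0.99 ± 0.29 (limma, adjusted p = 0.14), and the contrasts share the small spherical arrays. Without small spherical replicate 3, SMARCA4 passed in the F test (limma, adjusted p = 0.0211), from small to large spherical (1.33, adjusted p = 0.0154) and from small spherical to filamentous (1.31, adjusted p = 0.0152). Over all alternatives the adjusted p ran from 0.0154 to 0.448 in the first of these contrasts and from 0.0152 to 0.304 in the second. Small spherical replicate 3 holds the highest SMARCA4 reading of its stage (123), so the passes without it depend on that choice.

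ARID1A, the partner of SMARCA4 in the BAF complex, had a different pattern. Its probe was dim throughout, with 28, 19, 18.4 and 17 in small spherical, 9.65, 11.4, 9.68 and 8.91 in large spherical, 13.9, 16.3, 28.2 and 15.2 in tubular and 26.2, 11.7, 11.3 and 11.2 in filamentous embryos. The 4 large spherical arrays lay below every small spherical and every tubular array, and filamentous replicate 1 stood above the other filamentous ones. Commonest steps between values on an array were 0.815 to 1.67 units, so low readings are coarse. The large spherical mean was lower than the small spherical one (log2 difference -1.03 ± 0.29, a 2.05-fold ratio), which did not pass (limma, adjusted p = 0.11). The step to tubular was 0.84 ± 0.29 in the other direction (limma, adjusted p = 0.999), and both steps share the large spherical arrays. The first step passed without filamentous replicate 1, which enters only through the shared spread (-1.03, limma, adjusted p = 0.0434), and with small spherical replicate 3 left out as well (-1.08, adjusted p = 0.0305). Its adjusted p over all alternatives was 0.0305 to 0.272, and the filter on the dimmest 25% of probes removed the gene.

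HMGB1, an abundant DNA-bending protein, read 149, 92.5, 104 and 67.1 in small spherical embryos on its brighter probe, and 182, 195, 151 and 159 in large spherical ones. Tubular arrays read 184, 145, 146 and 154, and filamentous arrays 124, 130, 141 and 107. Every large spherical array was above every small spherical one, and every filamentous array was below every tubular one. The means were 103 ± 34.4, 172 ± 20.3, 157 ± 18.1 and 125 ± 14.2 (intensity, SD, n = 4), highest in large spherical embryos. The difference from small to large spherical was 0.78 ± 0.21 (log2, SE), a 1.72-fold ratio that did not pass (limma, adjusted p = 0.0887). It passed without small spherical replicate 1 (0.98, limma, adjusted p = 0.0232). That array holds the highest HMGB1 reading of its stage (149), so this pass depends on that choice. On the 12 arrays numbered 2 to 4 the difference did not pass (0.95, limma, adjusted p = 0.0808). Over all alternatives its adjusted p was 0.0232 to 0.414. From tubular to filamentous the difference was -0.33 ± 0.21 (limma, adjusted p = 0.994).

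The second HMGB1 probe did not show this pattern. It read 90.5, 44.6, 29.8 and 41 in small spherical and 51.7, 38, 31 and 24.3 in large spherical embryos, a log2 difference of -0.43 ± 0.41 against 0.78 on the brighter probe. The dimmer probe read 23, 33, 53.1 and 26.6 in tubular and 110, 29, 41.5 and 49 in filamentous embryos, with replicate 1 the highest in every stage except tubular. The differences of the 2 probes at the first step had opposite signs, the gap between the probes was not tested, and the intensities do not show which of them follows the HMGB1 transcript.

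**Figure D2:**
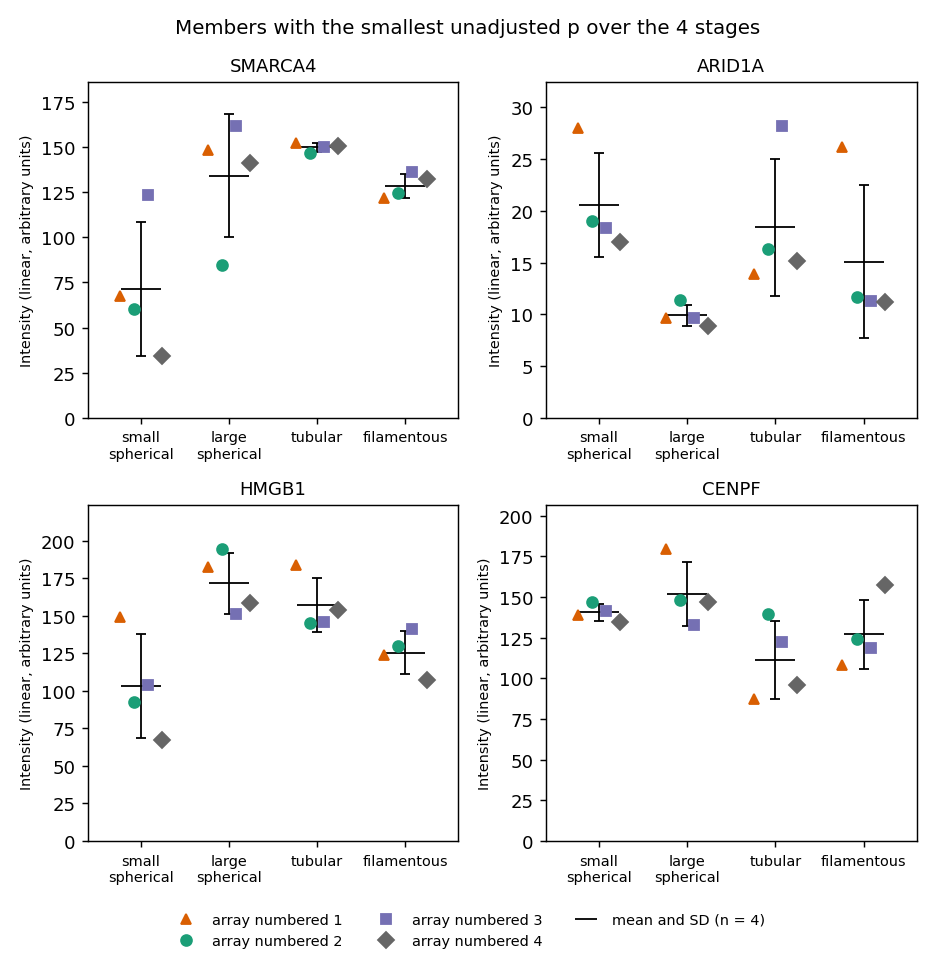
Intensity (linear scale from 0) of SMARCA4, ARID1A, HMGB1 (brighter probe) and CENPF on each of the 16 arrays by stage, with symbols for the array number and bars for the mean and SD of 4 arrays. SMARCA4 is low on 3 of 4 small spherical arrays, ARID1A is lowest in large spherical embryos, HMGB1 is highest there, and CENPF is lowest on tubular replicate 1.

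From small to large spherical, the first growth step, 0 of 19 members passed, beside 0.394% of all probes. At an unadjusted p below 0.05 were 3 members (HMGB1, ARID1A and SMARCA4) and 9.37% of all probes. HMGB1 was the 1 member whose large spherical arrays all lay above the small spherical ones, which was so for 3.85% of all probes, and ARID1A the 1 whose arrays all lay below, as for 1.18%. The median difference of the members was -0.12 on the log2 scale, with 13 of 19 negative, beside a median of -0.03 over all probes, of which 54.1% were negative. HMGN2, the next by p, differed by -0.44 ± 0.28 (limma, adjusted p = 0.729).

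Between large spherical and tubular embryos 0 of 19 members passed, as did 0% of all probes by limma, and 2 members had an unadjusted p below 0.05 (ARID1A and CENPF), where 3.25% of all probes did. ARID1A was the 1 member whose tubular arrays all lay above the large spherical ones, as 1.18% of all probes did. CENPF, a kinetochore and nuclear matrix protein made late in the cell cycle, read 180, 148, 133 and 147 in large spherical and 87.5, 139, 122 and 95.9 in tubular embryos. Tubular replicate 2 lay above the lowest large spherical array, so the groups overlapped. The difference was -0.47 ± 0.17 (limma, adjusted p = 0.999). In small spherical embryos CENPF was tightly grouped, at 139, 147, 141 and 135, and in filamentous ones it read 108, 124, 118 and 157. CCNA2 (-0.34 ± 0.40) and HDAC1, a histone deacetylase (-0.26 ± 0.35), were the next by p and did not pass (limma, adjusted p = 0.999 for each). The median of the members was -0.02, beside -0.04 over all probes, and 14 of 19 were negative, beside 58% of all probes.

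Between tubular and filamentous embryos 0 of 19 members passed, 0% of all probes passed by limma, and 0 members had an unadjusted p below 0.05, where 3.35% of all probes did. HMGB1 and SMARCA4 were the 2 members whose filamentous arrays all lay below the tubular ones, as 0.986% of all probes did. For SMARCA4 this was a small difference between tightly grouped arrays (log2 difference -0.22 ± 0.29, limma, adjusted p = 0.994). That SE comes from the spread shared by all 4 stages. The intensity SDs were 2.34 and 6.58 in these 2 stages, against 37.4 and 34 in the spherical ones. The adjusted p therefore does not measure the spread of the tubular and filamentous arrays alone. CENPF (0.20 ± 0.17), ARID1A (-0.33 ± 0.29) and SET (0.17 ± 0.20) had the next smallest p (limma, adjusted p = 0.994 for each). With each array left out in turn, ARID1A ran from -0.63 without filamentous replicate 1 to -0.11 without tubular replicate 3. The range of SET was 0.0034 without filamentous replicate 1 to 0.30 without filamentous replicate 2, and CENPF ran from 0.10 without filamentous replicate 4 or tubular replicate 1 to 0.32 without tubular replicate 2. On the 12 arrays numbered 2 to 4 the ARID1A difference was -0.75 (limma, unadjusted p = 0.00663, adjusted p = 0.999), the 1 member then below 0.05, where 3.65% of all probes were. The members had a median of -0.01, beside 0.02 over all probes, with 10 of 19 negative, beside 45.9% of all probes.

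Over the whole interval, filamentous minus small spherical, 0 of 19 members passed where 0.888% of all probes did, and SMARCA4 alone had an unadjusted p below 0.05, where 14.6% of all probes did. No member had filamentous arrays all above or all below the small spherical ones, which was so for 7.2% of all probes. The median of the members was -0.17, with 13 of 19 negative, beside -0.03 and 54.4% over all probes. After SMARCA4 the smallest p belonged to ARID1A (-0.53 ± 0.29, limma, adjusted p = 0.439), HMGB1 (0.33 ± 0.21, adjusted p = 0.514) and SMARCA1 (-0.29 ± 0.19, adjusted p = 0.534). With each array left out in turn, ARID1A ran from -0.83 without filamentous replicate 1 to -0.37 without small spherical replicate 1. HMGB1 ran from 0.14 without small spherical replicate 4 to 0.53 without small spherical replicate 1. The hypoblast, yolk sac and mesoderm marker sums, which did not overlap between these stages, were not tested for a part in these differences. SMARCA1, the motor of ISWI remodelling complexes, read 67.3, 60.6, 54.6 and 75.9 in small spherical and 65.5, 43.4, 56.6 and 46.5 in filamentous embryos, with overlapping groups.

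Without the arrays numbered 1, the 12 remaining arrays gave 0 members past the threshold in each of these comparisons. There, 4 members had an unadjusted p below 0.05 from small spherical to filamentous (SMARCA4, ARID1A, HMGB1 and CCNB1), where 13.3% of all probes did. Without small spherical replicate 3 and filamentous replicate 1, 2 members passed from small to large spherical (SMARCA4 and ARID1A), where 36 of 1014 probes passed, and SMARCA4 alone passed over the whole interval, where 31 did. Over the whole interval 5 members then had an unadjusted p below 0.05, where 15.6% of all probes did. These were SMARCA4, ARID1A (-0.87, limma, adjusted p = 0.101), CCNB1 (-0.95, adjusted p = 0.202), SMARCA1 (-0.48, adjusted p = 0.292) and CCNA2 (-0.95, adjusted p = 0.311). Small spherical replicate 3 holds the highest SMARCA4 reading of its stage (123) and filamentous replicate 1 the highest ARID1A reading of its stage (26.2). Calls made without these arrays therefore depend on which arrays were left out and are no independent support.

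The cyclins, the drivers of division among the members, had stages that overlapped. CCNB1 read 90.5, 70.1, 50.8 and 56.2 in small spherical, 71.8, 58, 36.4 and 39.6 in large spherical, 70.5, 26.7, 54.1 and 46.2 in tubular and 90.3, 31.9, 36.5 and 42.7 in filamentous embryos. In each stage the array numbered 1 was the highest, which was so for 6.31% of all probes. The mean was 66.9 ± 17.7 in small spherical embryos and 51.5 ± 16.6, 49.4 ± 18.2 and 50.4 ± 27 in the later stages (intensity, SD, n = 4). The difference over the whole interval was -0.50 ± 0.36 (limma, adjusted p = 0.571), and -0.67 ± 0.28 on the 12 arrays numbered 2 to 4 (adjusted p = 0.336). The second CCNB1 probe read 24.1 to 54.8 in small spherical and 31.9 to 45 in filamentous embryos, a log2 difference of -0.12 ± 0.26.

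CCNA2 read 66.4, 25.4, 22.2 and 23.5 in small spherical and 38.2, 11.7, 18.8 and 25.1 in filamentous embryos. Its small spherical mean of 34.4 ± 21.4 was set by replicate 1, and the other small spherical arrays lay within the range of the filamentous ones. The difference was -0.52 ± 0.40 (limma, adjusted p = 0.633), with large spherical arrays at 16.6 to 28 and tubular arrays at 11.7 to 25. CCNB2 read 143, 120, 139 and 117 in small spherical, 147, 105, 150 and 118 in large spherical, 129, 158, 103 and 124 in tubular and 158, 173, 96.9 and 125 in filamentous embryos. The 4 stages of CCNB2 overlapped fully, and the interval of its difference over the whole course ran from -0.37 to 0.49 on the log2 scale. CDC37, named with the CDC genes but a chaperone partner of HSP90 that holds kinases, averaged 242 ± 77.2, 278 ± 154, 226 ± 45.1 and 198 ± 29.5. In this group of 4 genes, which includes CDC37, 0 passed in any contrast. Their median over the whole interval was -0.37 with 3 of 4 negative, beside -0.03 and 54.4% over all probes.

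TOP2A read 54.8, 67, 67.9 and 83.5 in small spherical, 51.7, 69.7, 63.1 and 95.2 in large spherical, 52.4, 73.6, 68.2 and 77.1 in tubular and 46.7, 55, 79.3 and 85.6 in filamentous embryos. Stage means were close, from 66.7 to 69.9, whereas the array numbered 1 was the lowest of its 4 in every stage, as for 6.02% of all probes. The interval of the difference over the whole course was -0.56 to 0.44 on the log2 scale.

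**Figure D3:**
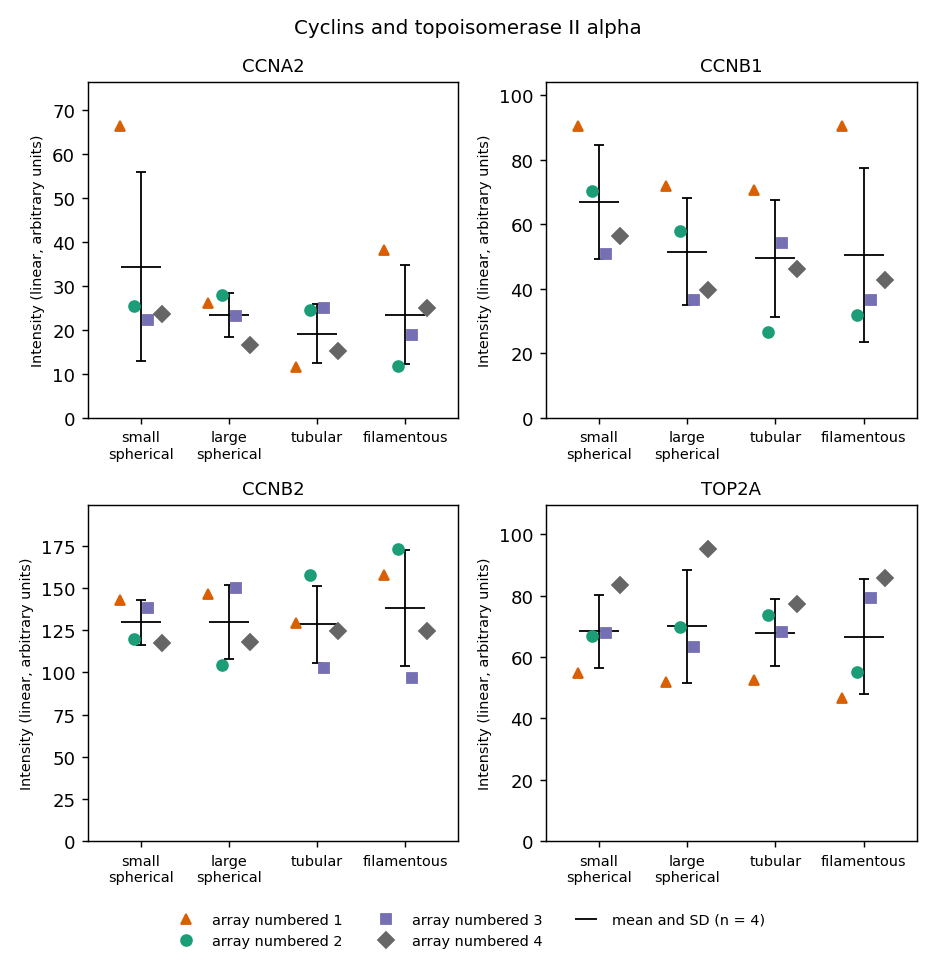
Intensity (linear scale from 0) of CCNA2, CCNB1, CCNB2 and TOP2A on each of the 16 arrays by stage, with symbols for the array number and bars for the mean and SD of 4 arrays. Triangles, the arrays numbered 1, are the highest point of every stage for CCNB1 and the lowest of every stage for TOP2A, and the stages overlap for all 4 genes.

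Among genes of mitosis, 3 were measured and 0 passed in any contrast. BUB3, which acts in the checkpoint that delays chromosome separation, read 135, 352, 182 and 371 in small spherical and 210, 151, 221 and 212 in large spherical embryos. Tubular arrays read 188, 220, 200 and 214, and filamentous arrays 214, 228, 223 and 157. Its SD was 45.7% of the mean in small spherical embryos and 7.02% to 16% in the later stages, with small spherical replicates 2 and 4 high. RAN, a GTPase of nuclear transport and spindle assembly, averaged 189 ± 40.2, 173 ± 31.3, 161 ± 16.9 and 162 ± 18.5, and its difference over the whole interval was -0.21 ± 0.18 (limma, adjusted p = 0.701).

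Of the histones, 2 genes were measured and 0 passed. H2AFY encodes macroH2A, a variant tied to silent chromatin, and read 128, 304, 182 and 471 in small spherical embryos. Small spherical replicates 2 and 4 were the high ones, as for BUB3, and the later stages lay between 118 and 327. Its small spherical mean of 271 ± 152 overlapped the filamentous one of 222 ± 73.5 (log2 difference -0.17 ± 0.36, limma, adjusted p = 0.923). H3F3A encodes the replacement histone H3.3, laid down outside DNA replication, and read 69.4 ± 8.82, 66.9 ± 4.97, 67.5 ± 15.5 and 62.9 ± 12.1 on its brighter probe and 70 ± 20.6, 54 ± 15.7, 51.8 ± 19.4 and 64.1 ± 9.74 on the other.

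**Figure D4:**
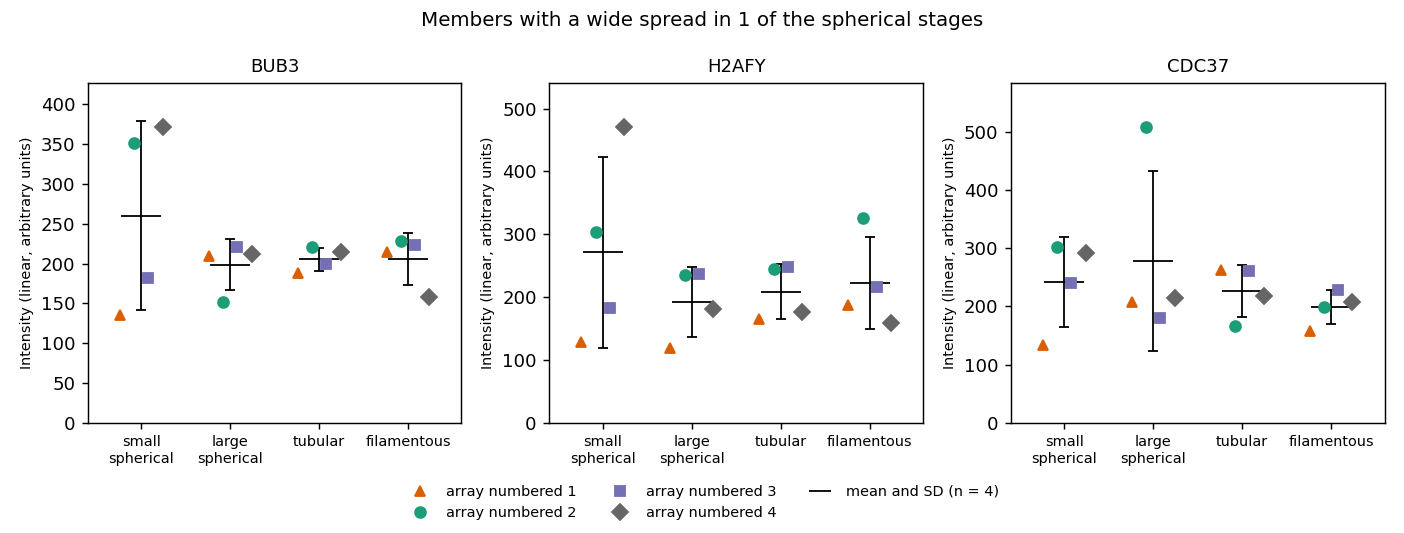
Intensity (linear scale from 0) of BUB3, H2AFY and CDC37 on each of the 16 arrays by stage, with symbols for the array number and bars for the mean and SD of 4 arrays. Small spherical replicates 2 and 4 are high for BUB3 and H2AFY, and large spherical replicate 2 stands at 508 for CDC37.

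The 4 HMG genes had 0 members past the threshold. HMGB2, a relative of HMGB1 found mostly in dividing cells, sat at the maximum of the array on 6 of 16 arrays, where values can be saturated. Its readings ran from 333 to 615, and those 6, from 377 to 508, bound the level rather than measure it. HMGN2, a nucleosome-binding protein of open chromatin, read 182, 113, 159 and 113 in small spherical, 152, 88, 106 and 78 in large spherical, 90.9, 80.9, 137 and 82 in tubular and 185, 101, 91.9 and 89.4 in filamentous embryos. The arrays numbered 1 were the highest in 3 of the 4 stages for HMGN2, HMGN1, RAN and SMARCA1, as well as in all 4 for CCNB1, and 20.5% of all probes had this in 3 or 4 stages. HMGN1, its relative, averaged 184 ± 47.4, 189 ± 7.8, 191 ± 38.9 and 188 ± 59.8, with an interval of -0.48 to 0.51 over the whole course.

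**Figure D5:**
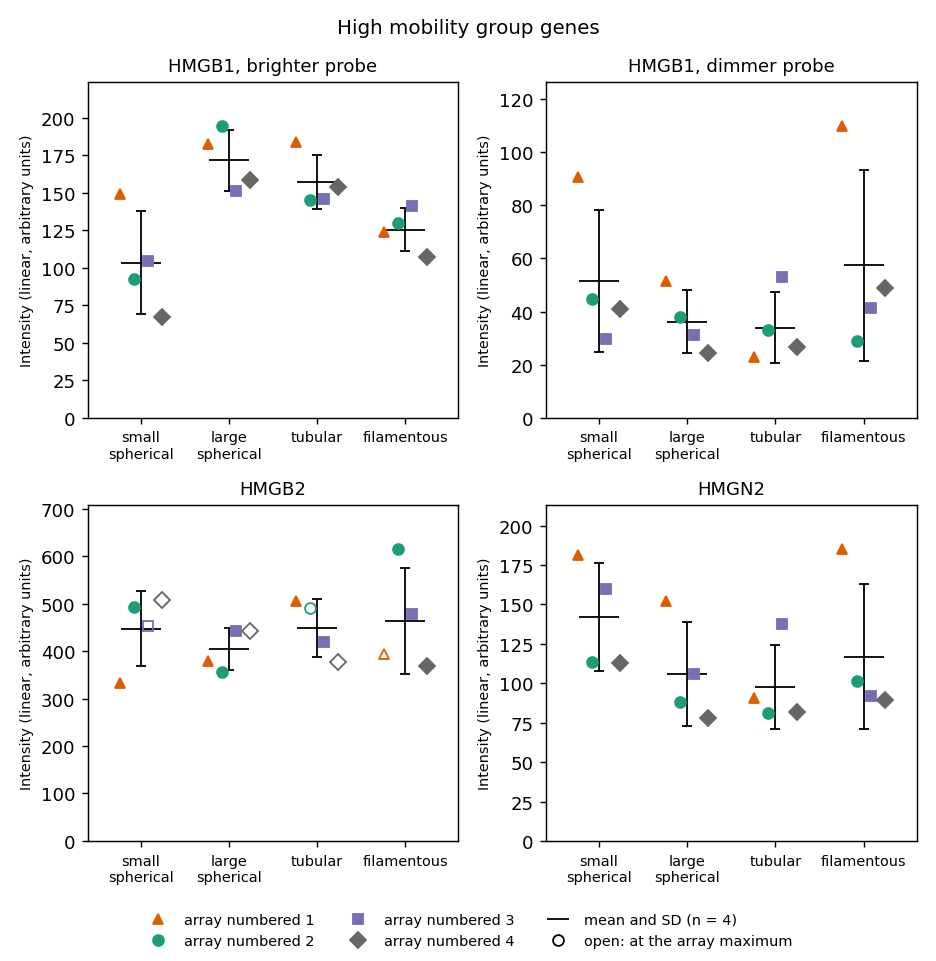
Intensity (linear scale from 0) of both HMGB1 probes, HMGB2 and HMGN2 on each of the 16 arrays by stage, with symbols for the array number, bars for the mean and SD of 4 arrays, and open symbols where a reading equals the maximum of its array. The HMGB1 probes differ in shape over the stages, and 6 HMGB2 readings are at the array maximum.

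Of the remodelling and deacetylase genes, 4 were measured: SMARCA4, ARID1A, SMARCA1 and HDAC1. HDAC1 removes acetyl marks from histones and was dim, with 26.2, 28.6, 20.3 and 23.5 in small spherical and 22.8, 20.3, 8.76 and 33.9 in filamentous embryos (log2 difference -0.34 ± 0.35, limma, adjusted p = 0.778). Its large spherical arrays read 15.1 to 28 and its tubular ones 11.9 to 25.2. SET, a histone chaperone that blocks histone acetylation, averaged 81.2 ± 7.93, 77.1 ± 18.2, 73.9 ± 8.15 and 85.2 ± 23.4, and all stages overlapped.

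Other genes of the same processes, taken from lists that do not follow the symbol rule, were also tested. Of 64 other cell cycle genes listed only 6 were measured, and 0 passed in either direction in any contrast, where 0% to 0.888% of all probes did. RAD21, a subunit of the cohesin ring that holds sister chromatids, had the largest F of them, with 95.4 ± 35.2, 170 ± 40.4, 160 ± 17.3 and 161 ± 37.4 from small spherical to filamentous (intensity, SD, n = 4). Its difference at the first step was 0.86 ± 0.25 (limma, adjusted p = 0.137), and every later mean was above the small spherical one. CSE1L, a nuclear export factor (adjusted p of the F test 0.721), and KPNA2, an importin (0.795), were next by F in limma. Of 48 other chromatin genes listed only 4 were measured, and 0 passed. KDM1A, a histone demethylase, had the smallest p of them over the whole interval and averaged 37.2 ± 5.07 in small spherical and 55 ± 9.16 in filamentous embryos (log2 0.56 ± 0.22, limma, adjusted p = 0.248). NAP1L1, a histone chaperone, and CTCF, an insulator protein, had adjusted p of the F test of 0.544 and 0.913 in limma.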

How the data were processed

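The deposited values are linear intensities, 1 for each probe on each array; no label records the authors' scanning, background or normalization steps. Array medians were already close, so values were only log2-transformed, without a pseudocount, and 1 probe with a constant value was left out. In limma 3.58.1 (R 4.3.3) a mean per stage was fitted to 1014 probes over the 16 arrays, and stages were compared by F and in 4 two-sided contrasts, with Benjamini-Hochberg adjustment over all probes and a threshold of 0.05. Intervals are 95% limits from the moderated variances. Ratios come from the log2 fit, whereas means and SDs describe linear values. The number of arrays limits the precision, and no background feature was known. Plots were drawn with matplotlib 3.10.9.

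The members, lists and tests were chosen with earlier results of these data known. Named with values were the 4 members with the smallest p in each comparison, the 2 with the largest F in each role group and CENPF; other members are given by their values. From each of 2 further lists the 3 genes with the largest F were named. Alternatives were median centring, quantile normalization, no dimmest 25% of probes, an offset of 5, a block for the replicate number, fits on only the compared stages, a variance trend with a robust prior, only 12 arrays, removal of small spherical replicate 3 with filamentous replicate 1, each array left out, and every member probe on its own. Replicate numbers come from the sample titles. Deviations of same-numbered arrays correlated at 0.219 to 0.495 in all 4 pairs for large against small spherical, and at least 1 pair was under 0.1 in the other contrasts. The 4 pairs ran from -0.117 to 0.455 for tubular against large spherical and from -0.026 to 0.271 for filamentous against tubular. For filamentous against small spherical they ran from 0.033 to 0.469.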

Additional observations from a re-analysis of the deposited data

Results flagged for a closer look

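In 76 groups of 4 arrays (19 members in 4 stages, on the log2 scale), 6 held an array far from the other 3 by Dixon's criterion, and chance gives about 1 in 20 groups. ARID1A read 26.2 on filamentous replicate 1, against 11.2 to 11.7 on the others. HMGN2 read 185 on the same array, against 89.4 to 101. CCNA2 read 66.4 on small spherical replicate 1, against 22.2 to 25.4. CDC37 read 508 on large spherical replicate 2, against 181 to 215. BUB3 read 151 on that array, against 210 to 221, and 157 on filamentous replicate 4, against 214 to 228.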

How the results depend on the processing

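On the brighter probe, the differences of the 4 members with the smallest p in each contrast kept their sign in every alternative run; other printed differences were not followed over the alternatives. The second HMGB1 probe had the opposite sign at the first step (-0.43 against 0.78) and from tubular to filamentous (0.65 against -0.33). The median of the members changed sign in the middle contrasts, from -0.08 to 0.01 between large spherical and tubular and from -0.04 to 0.02 between tubular and filamentous embryos. Between large spherical and tubular or tubular and filamentous embryos 0 members and 0 probes passed under any of them. Leaving out each array in turn gave 0 to 1 members past the threshold in the F test, from small to large spherical and from small spherical to filamentous; the probes past it numbered 1 to 13, 1 to 26 and 3 to 28 in that order (4, 4 and 9 on all arrays). Without small spherical replicate 3 and filamentous replicate 1 together the members numbered 1, 2 and 1 and the probes 17, 36 and 31. The count of probes from small to large spherical was 7 without the dimmest 25% of probes and 9 with a variance trend and robust prior; that of the F test was 2 without the dimmest probes, which removes ARID1A, CCNA2 and HDAC1. With only small spherical and filamentous arrays in the fit 2 probes passed. With the replicate number as a block, 10 probes passed in the F test and 15 from small spherical to filamentous, where the numbers were not taken to pair the samples, and 5 from small to large spherical; the block gave 0 members past the threshold and changed no call of a member. Where a cause is not given by the setting itself, it was not tested. With an array left out, the median difference of the members was -0.15 to -0.06 at the first step (-0.12 on all arrays) and -0.20 to -0.10 over the whole interval (-0.17). The number of arrays, dim signal for ARID1A, CCNA2 and HDAC1, and array maxima for HMGB2 limit what these data can show.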
